A study of Mus musculus with 9 samples.

Results

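The urokinase receptor Plaur and 3 genes of plasminogen activation, Plau, Plat and Serpine2, were followed through RNA sequencing of mouse osteosarcoma cells. They were taken by gene name from a table of 55401 genes, in which all 4 were found. The cells were K7M2, a mouse osteosarcoma line known for spreading to the lung, labelled WT in genotype. They were left untreated or were exposed to mouse platelets, and sequencing libraries were made from their total RNA with an mRNA kit. There were 3 libraries of (A/R) platelet cells, 3 of platelet cells and 3 of untreated cells. What A/R stands for is not spelled out in the labels. All 9 titles give 24 h, but in the treatment labels the time is 24, 25 and 26 h in the 3 platelet libraries and 27, 28 and 29 h in the 3 libraries of (A/R) platelet cells. As labelled, the hours and the kind of platelet cannot be told apart. No label says that the libraries of a group came from separate cultures, so the p-values measure only the spread between libraries, which may be technical.

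Plasmin is a broad protease made by cutting plasminogen, and it degrades fibrin and extracellular matrix proteins. Urokinase (Plau) and tissue plasminogen activator (Plat) make that cut, urokinase mainly at the cell surface, where it binds its receptor (Plaur), and tissue plasminogen activator mainly on fibrin. Protease nexin-1 (Serpine2), a serpin, inhibits both activators, and in tumours the urokinase system is known for its part in invasion.

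The promoters of 2 of the 4 members, Plaur and Serpine2, were in the RefSeq promoter table (GRCm38.p6), and the bases before the annotated start are shown because these members had the highest and the lowest level. They are written 5′ to 3′ on the strand of the gene, with matches to the AP-1 motif TGANTCA in capitals. The Plaur stretch lies at chr7:24462233-24462482 on the plus strand and the Serpine2 stretch at chr1:79858666-79858915 on the minus strand. For Serpine2 the sources differ on the start, and the stretch follows RefSeq. The deposited coordinates start the gene at 79858696, within the stretch, and GENCODE starts it at 79861180. The stretch therefore lies inside the gene as GENCODE draws it.
Plaur: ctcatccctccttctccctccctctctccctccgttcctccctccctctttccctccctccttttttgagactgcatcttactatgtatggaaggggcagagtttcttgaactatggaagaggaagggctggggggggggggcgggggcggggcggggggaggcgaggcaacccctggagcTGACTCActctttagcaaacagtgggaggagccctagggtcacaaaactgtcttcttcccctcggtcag
Serpine2: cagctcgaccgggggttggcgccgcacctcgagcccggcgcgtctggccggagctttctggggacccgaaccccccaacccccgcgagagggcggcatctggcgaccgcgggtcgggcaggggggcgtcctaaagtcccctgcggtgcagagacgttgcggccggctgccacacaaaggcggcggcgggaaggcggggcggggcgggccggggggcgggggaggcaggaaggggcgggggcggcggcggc
AP-1 is the dimer of Fos and Jun proteins. The Plaur promoter held 1 match to its motif, from 69 to 63 bases before the start, and 6.75% of the 32851 promoters in the table held at least 1 within the same 250 bases on either strand. No such match was found in the Serpine2 stretch. The SP1 motif GGGCGG was found 3 times in the Plaur stretch, with 2 of the matches sharing a base, and 6 times in the Serpine2 stretch, where 2 also share a base, against 32.7% of all promoters with at least 1 match. No match to the CRE motif TGACGTC, the ETS motif CCGGAAG or the TATA box TATAAA was found in either stretch, and these occurred in 2.78%, 6.91% and 12.4% of all promoters. The GC content was 59.6% for Plaur and 78.8% for Serpine2, against a median of 52.4% over all promoters.

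Library totals ranged from 37465049 to 61366030 estimated counts, at about 4 counts per fragment. Levels are given as FPKM, fragments per kilobase of transcript, scaled to the mapped fragments of the library. Differences were tested on the counts with edgeR's quasi-likelihood test, in 1 fit of the 9 libraries, for the 11826 genes with at least 1 FPKM in at least 3 libraries. A difference passed at a Benjamini-Hochberg adjusted p under 0.05, and a log2 fold change is the first named group minus the second. The summed level of 7 markers of the osteosarcoma cells was 754 to 786 FPKM in (A/R) platelet, 912 to 931 FPKM in platelet and 918 to 924 FPKM in untreated libraries. Most of that sum was Vim, at means of 555, 664 and 645 FPKM in the same groups. Runx2 averaged 3.82, 3.21 and 3.45 FPKM, and Sp7 had 0 or 8 counts per library. Alpl, a defining enzyme of the osteoblast lineage, had 0 counts in all 9 libraries. The 12 platelet markers summed to 1.71 to 2.44 FPKM in (A/R) platelet, 2.84 to 3.55 FPKM in platelet and 3.05 to 4.36 FPKM in untreated libraries, with Gp6, Tubb1, Treml1 and Clec1b at 0 counts in all 9. Most of that sum was Ppbp, the 1 marker tested, at means of 1.57, 2.65 and 3.27 FPKM in the same groups. Some of the low markers did not follow that order. At about 4 counts per fragment, Gp5 had 8, 16 and 3 counts in (A/R) platelet libraries and 8, 6 and 4 counts in platelet libraries. It had 0 counts in all 3 untreated libraries. Pf4 averaged 0.286, 0.0850 and 0.203 FPKM in (A/R) platelet, platelet and untreated cells, and Itga2b 0.0332, 0.0605 and 0.0365 FPKM. Gp1bb did follow the order, at 0.0855, 0.187 and 0.224 FPKM. The 7 leukocyte markers summed to 3.06 to 5.39, 3.22 to 8.96 and 2.79 to 4.77 FPKM in the (A/R) platelet, platelet and untreated libraries, and the 5 erythroid markers to 1.33 to 2.05, 1.52 to 2.70 and 0.838 to 1.97 FPKM in the same groups.

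Plaur encodes the receptor that anchors urokinase to the cell membrane. The gene (ENSMUSG00000046223) is protein coding and lies at chr7:24462484-24475968 on the plus strand (GRCm38), and its longest coding transcript has 7 exons and 1506 nt. Its level was 86.3, 85.5 and 84.5 FPKM in the 3 (A/R) platelet libraries, 49.2, 41.3 and 44.7 FPKM in the platelet libraries, and 30.0, 31.4 and 30.1 FPKM in the untreated libraries. None of the groups overlapped, every (A/R) platelet library being above every platelet library and every platelet library above every untreated one. Groups without overlap were common, at 51.1% of tested genes in (A/R) platelet against untreated cells, 48.9% in (A/R) platelet against platelet cells and 19.3% in platelet against untreated cells. The means were 85.4 ± 0.895, 45.1 ± 3.94 and 30.5 ± 0.763 FPKM in (A/R) platelet, platelet and untreated cells (SD, n = 3 each). These values rest on 11392 to 15346 counts per library in (A/R) platelet cells, 5742 to 7403 in platelet cells and 3273 to 4983 in untreated cells.

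Plaur rose in all 3 comparisons. In platelet against untreated cells the log2 fold change was 0.58 ± 0.060 (SE), a 1.49-fold rise, with an adjusted p of 0.00627 in edgeR's test. Few genes passed in that comparison, 31 of 11826 or 0.262%, 25 of them (0.211% of the tested genes) higher, and Plaur was the 8th by p-value but only the 226th in size of rise. With the replicate number as a block the same difference had an adjusted p of 0.0534. In (A/R) platelet against untreated cells the log2 fold change was 1.54 ± 0.061 (SE), a 2.90-fold rise with an adjusted p of 6.3e-07 in edgeR's test, where 38.8% of tested genes passed and 19.3% passed upward. Plaur was the 25th by p-value and the 73rd in size of rise in that comparison. In (A/R) platelet against platelet cells the log2 fold change was 0.96 ± 0.060 (SE), a 1.94-fold rise with an adjusted p of 7.8e-06 in edgeR's test, where 34.3% of tested genes passed and 17.1% passed upward. By mean FPKM, Plaur was the 558th of the 11826 tested genes in (A/R) platelet cells, the 1146th in platelet cells and the 1741st in untreated cells. As these are bulk libraries, a change in the share of cells of a type and a change in RNA per cell cannot be told apart. The nearest tested neighbour of Plaur, Cadm4, lies 6055 bp after it and had log2 fold changes of -0.05, 0.07 and 0.13 in the same 3 comparisons, with no call.

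**Figure D1:**
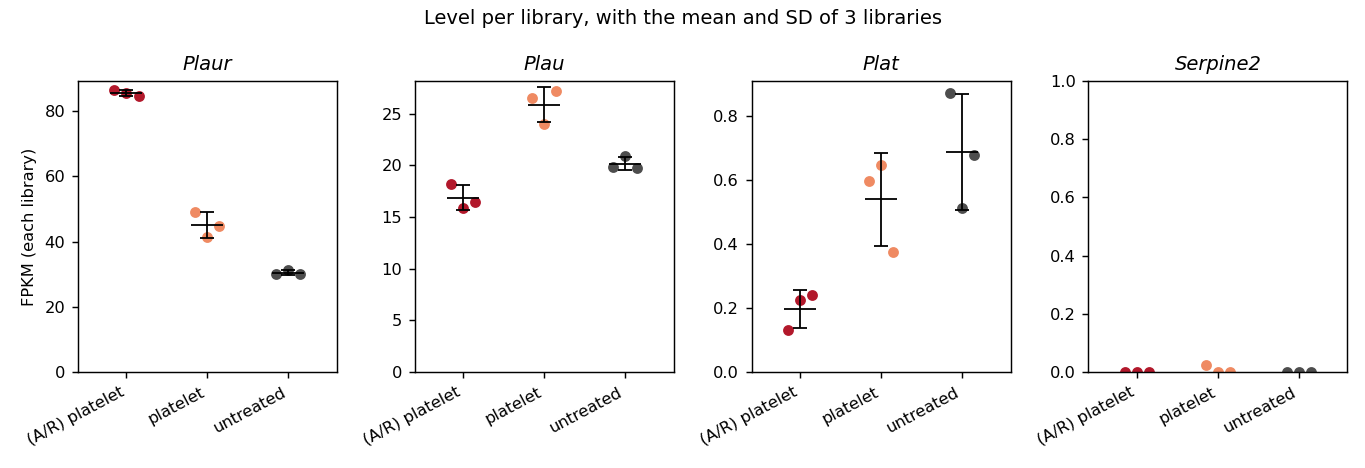
FPKM in each of the 9 libraries for the 4 members, on linear axes that start at 0, with a separate scale per gene; points are libraries and bars are the mean and SD of 3, except for Serpine2, which has no bar. Plaur is highest in (A/R) platelet libraries and lowest in untreated ones, Plau is highest in platelet libraries, Plat is lowest in (A/R) platelet libraries, and Serpine2 is at 0 counts in 8 of 9 libraries.

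Plau, which encodes urokinase, stood in another order of groups than its receptor. The gene (ENSMUSG00000021822) is protein coding, at chr14:20836660-20843385 on the plus strand, and its longest coding transcript has 11 exons and 2342 nt. It stood at 18.2, 15.9 and 16.5 FPKM in (A/R) platelet libraries, 26.5, 24.0 and 27.2 FPKM in platelet libraries, and 19.9, 20.9 and 19.7 FPKM in untreated libraries. The platelet libraries were highest and the (A/R) platelet libraries lowest, with no overlap between any of the groups. The means were 16.9 ± 1.20, 25.9 ± 1.68 and 20.2 ± 0.634 FPKM in (A/R) platelet, platelet and untreated cells (SD, n = 3 each).

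Plau fell in (A/R) platelet against platelet cells, by 0.58 ± 0.072 (SE) on the log2 scale (0.668-fold, adjusted p = 0.000325, edgeR's test), where 17.1% of tested genes passed downward. In (A/R) platelet against untreated cells it was lower by a small margin, with a log2 fold change of -0.21 ± 0.072 (SE) and an adjusted p of 0.0464 in edgeR's test, where 19.5% of tested genes passed downward. That call held in 9 of 19 settings and was lost without any 1 of 7 libraries. The adjusted p was 0.0891, 0.121 and 0.0697 without untreated replicate 1, 2 and 3, it was 0.0620 and 0.0549 without platelet replicate 1 and 3, and it was 0.141 and 0.127 without (A/R) platelet replicate 2 and 3 (edgeR). Between platelet and untreated cells the log2 fold change was 0.37 ± 0.072 (SE), 1.30-fold, which did not pass (adjusted p = 0.0915, edgeR's test), although the groups did not overlap. DESeq2 gave an adjusted p of 0.00132 for that difference.

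The level of Plau relative to Plaur was taken within each library, so that the scaling of the library cancels. The ratio was 0.211, 0.186 and 0.195 in (A/R) platelet libraries, 0.539, 0.580 and 0.607 in platelet libraries, and 0.662, 0.666 and 0.657 in untreated libraries. It was lowest in every (A/R) platelet library and highest in every untreated library. The means were 0.197 ± 0.0126, 0.575 ± 0.0341 and 0.662 ± 0.00501 in (A/R) platelet, platelet and untreated cells (SD, n = 3 each). The log2 difference of the mean ratios was -1.75 for (A/R) platelet minus untreated, -1.54 for (A/R) platelet minus platelet and -0.20 for platelet minus untreated. An exact two-sided permutation test gave p = 0.1 for each, the smallest that 3 libraries against 3 allow.

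**Figure D2:**
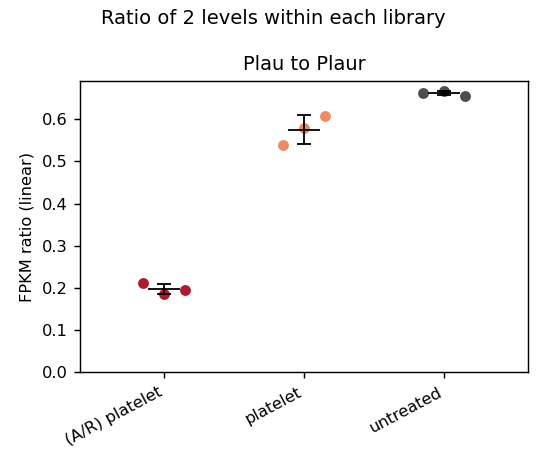
Ratio of the FPKM of Plau to that of Plaur within each library, on a linear axis that starts at 0; points are libraries, and bars are the mean and SD of 3. The ratio is 0.186 to 0.211 in (A/R) platelet libraries, below every platelet and untreated library.

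Plat, which encodes tissue plasminogen activator, had counts in all 9 libraries but at a low level, under the FPKM minimum. It was therefore tested only in a fit without that filter. The gene (ENSMUSG00000031538) is protein coding, at chr8:22757727-22782844 on the plus strand, and its longest coding transcript has 14 exons and 2525 nt. It had 0.130, 0.225 and 0.240 FPKM in (A/R) platelet libraries, 0.597, 0.647 and 0.375 FPKM in platelet libraries, and 0.872, 0.512 and 0.678 FPKM in untreated libraries. The (A/R) platelet libraries lay below all others, while the platelet and untreated libraries overlapped. The counts behind these levels were 42, 97 and 101 in (A/R) platelet libraries, 215, 216 and 121 in platelet libraries, and 313, 195 and 176 in untreated libraries, at about 4 counts per fragment.

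In the fit without a filter, of 25323 genes, Plat fell by 1.70 ± 0.317 (SE) on the log2 scale in (A/R) platelet against untreated cells (0.307-fold, adjusted p = 0.00339, edgeR's test), where 16.0% of genes passed and 7.69% passed downward. It fell by 1.38 ± 0.315 (SE) in (A/R) platelet against platelet cells (0.385-fold, adjusted p = 0.0132, edgeR's test), where 14.1% passed and 6.68% passed downward. On the log2(FPKM + 1) scale the second difference was -0.36 with an adjusted p of 0.0551 in limma. Between platelet and untreated cells the log2 fold change was -0.33 ± 0.305 (SE), with an adjusted p of 0.758 in edgeR's test, where 0.0869% passed. Endothelium is a main source of Plat in tissue, and its 4 markers summed to 0.537 to 0.758 FPKM in (A/R) platelet, 1.16 to 1.22 FPKM in platelet and 1.03 to 1.50 FPKM in untreated libraries. The 1 of them that was tested, the cadherin Cdh5, averaged 0.590, 1.13 and 1.24 FPKM in (A/R) platelet, platelet and untreated cells, with a log2 fold change of -1.02 in (A/R) platelet against untreated cells (adjusted p = 0.00219, edgeR's test). Most of the sum was Cdh5, and Pecam1, Kdr and Tek had 0 to 19 counts per library, with groups that overlapped. The part of these markers in the Plat difference was not tested. The neighbour Ap3m2, which encodes a subunit of an adaptor complex, lies 4510 bp after Plat by coordinates, whatever its strand. Ap3m2 was also lower in (A/R) platelet cells, by a log2 fold change of -0.67 against untreated cells (adjusted p = 0.00643, edgeR's test).

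Serpine2, which encodes protease nexin-1, was almost without reads. The gene (ENSMUSG00000026249) is protein coding, at chr1:79794197-79858696 on the minus strand. It had 0 counts in 8 of the 9 libraries and 12 counts, 0.0237 FPKM, in platelet replicate 1. A count of 0 allows up to 3 fragments or 12 counts, or 0.196 to 0.320 CPM (counts relative to the library total) across the libraries, a limit that covers counting error only. The 1 library with reads stood at that limit, so no fold change is given and no difference was detectable at this depth. Its neighbour Mrpl44, 12752 bp away, was tested in all 3 comparisons with no call.

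The 9 inhibitors reported here, Serpine2 among them, were all under the FPKM minimum. Serpina5 had 0 counts in all 9 libraries, and the serpin Serpinb2 had 4 counts in 1 library and 0 in the other 8.

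Plasminogen itself, Plg, had 19, 0 and 49 counts in (A/R) platelet libraries, 8, 25 and 0 counts in platelet libraries, and 0, 15 and 0 counts in untreated libraries. These counts did not separate the groups. Of the 7 listed activators and zymogens, Plau alone was above the FPKM minimum, and plasma kallikrein (Klkb1) had 0 counts in all 9 libraries.

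The pathway lists held 77 genes, the members included, of which 40 were tested and 37 were under the FPKM minimum. In platelet against untreated cells 3 were higher (Plaur, Fosl1 and Jun), 0 were lower and 37 did not pass. In (A/R) platelet against untreated cells 10 were higher, 12 lower and 18 did not pass, and against platelet cells 9 were higher, 13 lower and 18 did not pass. The shares of all tested genes that passed in those 2 comparisons were 38.8% and 34.3%.

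**Figure D3:**
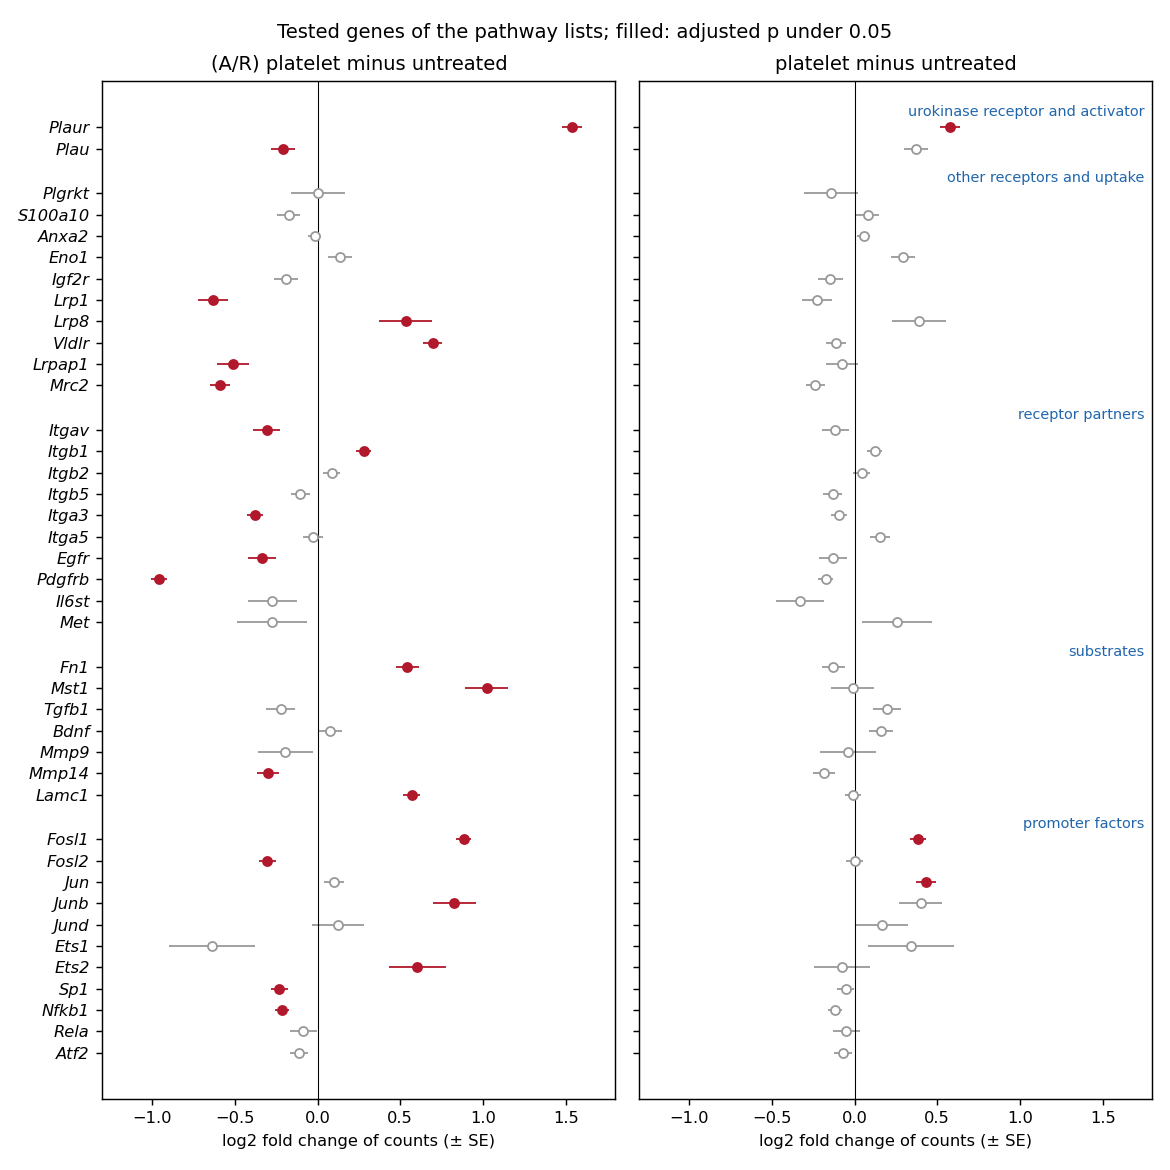
Log2 fold change of counts with its SE for the tested genes of the pathway lists, in (A/R) platelet minus untreated (left) and platelet minus untreated (right), which share the untreated libraries; filled red points have an adjusted p under 0.05. Plaur has the largest rise of the listed genes in both panels, 1.54 and 0.58, and filled points stand on both sides of 0 on the left and at Plaur, Fosl1 and Jun on the right.

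None of the tested receptors that hold plasminogen at the cell surface passed in either comparison with untreated cells. Anxa2, the annexin that binds S100a10 in a plasminogen receptor, averaged 382, 412 and 401 FPKM in (A/R) platelet, platelet and untreated cells and passed in no comparison. S100a10 averaged 241, 294 and 281 FPKM in the same groups and was lower in (A/R) platelet than in platelet cells (log2 fold change -0.25, adjusted p = 0.0212, edgeR's test). Leaving out 1 library ended that call in 3 cases, platelet replicate 1 (adjusted p = 0.0710), platelet replicate 3 (0.0544) and (A/R) platelet replicate 2 (0.0783, edgeR), as did the replicate block (0.0510). The plasminogen receptor Plgrkt averaged 4.65, 4.32 and 4.81 FPKM in (A/R) platelet, platelet and untreated cells and passed in no comparison.

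Receptors that take up inhibited urokinase moved in both directions in (A/R) platelet cells. Lrp1, the large scavenger receptor that clears this complex, averaged 27.5 ± 1.82, 37.3 ± 4.07 and 44.1 ± 3.37 FPKM in (A/R) platelet, platelet and untreated cells (SD, n = 3 each). It fell against untreated cells by 0.63 on the log2 scale (adjusted p = 0.000617, edgeR's test). Its chaperone Lrpap1 fell by 0.51 and the collagen receptor Mrc2, known to associate with the urokinase receptor, by 0.59 (adjusted p = 0.00292 and 6.8e-05, edgeR's test). All 3 were also lower than in platelet cells, by log2 fold changes of -0.41, -0.44 and -0.35. Vldlr, a related uptake receptor, averaged 22.5 ± 1.47, 13.2 ± 0.331 and 14.4 ± 0.814 FPKM in (A/R) platelet, platelet and untreated cells. It rose by a log2 fold change of 0.69 against untreated cells and of 0.81 against platelet cells (adjusted p = 3.23e-05 and 1.97e-05, edgeR's test). Lrp8 rose against untreated cells (log2 fold change 0.53, adjusted p = 0.0292, edgeR's test), a call that did not hold without any 1 untreated library (adjusted p = 0.0573, 0.0830 and 0.0660 without replicate 1, 2 and 3) or without (A/R) platelet replicate 1 (0.0954, edgeR), nor in limma on log2(FPKM + 1) or log2(FPKM + 0.1) (0.0624 and 0.0616). Of the 14 genes listed as receptors, 11 were tested, and their median log2 fold change was -0.02 for (A/R) platelet minus untreated and -0.07 for platelet minus untreated, against 0.00 over all tested genes in both.

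The urokinase receptor has no part inside the cell and is known to signal through membrane partners. Of 17 partners listed, 10 were tested, and in (A/R) platelet cells 1 was higher and 4 were lower than in untreated cells, with a median log2 fold change of -0.27 against 0.00 over all tested genes. Of all tested genes 19.3% were higher and 19.5% lower in that comparison. Pdgfrb, a receptor of platelet-derived growth factor, averaged 13.3 ± 0.197, 23.5 ± 0.904 and 26.8 ± 1.15 FPKM in (A/R) platelet, platelet and untreated cells (SD, n = 3 each). Its log2 fold change was -0.96 against untreated cells and -0.78 against platelet cells (adjusted p = 1.8e-06 and 6.36e-06, edgeR's test). The integrin chains Itga3 and Itgav and the growth factor receptor Egfr fell by 0.38, 0.31 and 0.34 on the log2 scale against untreated cells. For Itgav the adjusted p was 0.0539 without untreated replicate 1, and 0.0553 and 0.0558 without (A/R) platelet replicate 1 and 3 (edgeR). The integrin chain Itgb1 was higher by a log2 fold change of 0.28 against untreated cells (adjusted p = 0.00127, edgeR's test). Against platelet cells Itgb1 was higher by 0.16 and Itga3 and Itga5 had log2 fold changes of -0.28 and -0.18. The Itgb1 call was lost without platelet replicate 3 or (A/R) platelet replicate 2 (adjusted p = 0.0905 and 0.0726, edgeR), and the Itga5 call without any 1 of the 6 platelet and (A/R) platelet libraries, at adjusted p of 0.0704 to 0.165. The Itgb1 call was not made in limma either (0.0795 and 0.0785 on log2(FPKM + 1) and log2(FPKM + 0.1)), nor the Itga5 call with DESeq2's size factors (0.0518), without a filter (0.166) or with the replicate block (0.0635). Of the 10, 0 passed in platelet against untreated cells, where 0.262% of all tested genes passed, with a median of -0.11.

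Among proteins cut by plasmin or its activators, 3 of 7 tested genes rose in (A/R) platelet cells against both other groups, as did 14.4% of all 11826 tested genes. Fibronectin (Fn1) averaged 37.0 ± 1.63, 23.8 ± 1.53 and 26.3 ± 1.86 FPKM in (A/R) platelet, platelet and untreated cells (SD, n = 3 each), with a log2 fold change of 0.54 against untreated cells. The laminin chain Lamc1 had a log2 fold change of 0.57 and Mst1, a relative of hepatocyte growth factor, one of 1.02, on levels of 15.4, 7.71 and 7.85 FPKM in (A/R) platelet, platelet and untreated cells. The adjusted p for (A/R) platelet minus untreated was 0.000293, 3.87e-05 and 0.000334 for Fn1, Lamc1 and Mst1 (edgeR's test). Against platelet cells the log2 fold changes were 0.67, 0.58 and 1.03 (adjusted p = 0.00011, 4.6e-05 and 0.000374, edgeR's test). Mst1 overlaps Rnf123 on the other strand, which averaged 6.81 FPKM, and reads of the 2 genes cannot be told apart where the use of strand is not given. The membrane protease Mmp14 fell against untreated cells by 0.30 on the log2 scale (adjusted p = 0.00637, edgeR's test). Tgfb1, a growth factor that plasmin can release from its latent form, was lower in (A/R) platelet than in platelet cells (log2 fold change -0.42, adjusted p = 0.00497, edgeR's test). The median of the list was 0.07 for (A/R) platelet minus untreated and -0.01 for platelet minus untreated.

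Of 14 listed transcription factors known at the Plau and Plaur promoters, 11 were tested. Fosl1, the AP-1 subunit Fra-1, had 122, 116 and 116 FPKM in (A/R) platelet libraries, 89.7, 83.8 and 82.9 FPKM in platelet libraries, and 64.4, 65.3 and 68.8 FPKM in untreated libraries. Its groups did not overlap and stood in the order seen for Plaur. Fosl1 rose in platelet against untreated cells (log2 fold change 0.38, adjusted p = 0.0128, edgeR's test) and in (A/R) platelet against untreated cells (0.88, adjusted p = 2.35e-06) and platelet cells (0.50, adjusted p = 6.46e-05). The first of these calls was lost without untreated replicate 1 or 2, at adjusted p of 0.0641 and 0.0510, in the 6 libraries alone (0.0633) and with the replicate block (0.0749, edgeR). Fosl1 overlaps Ccdc85b on the other strand, which averaged 26.2 FPKM over the 9 libraries, so its reads are uncertain in the same way as those of Mst1.

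Of the other AP-1 subunits, Junb stood in the same order of groups as Fosl1, and Jun did not. Jun averaged 27.0, 34.8 and 26.1 FPKM in (A/R) platelet, platelet and untreated cells. It was higher in platelet than in untreated cells (log2 fold change 0.43, adjusted p = 0.0322, edgeR's test), lower in (A/R) platelet than in platelet cells (-0.33, adjusted p = 0.00301), and did not pass in (A/R) platelet against untreated cells (0.10, adjusted p = 0.225). The first Jun call was lost without any 1 of the untreated or platelet libraries or without (A/R) platelet replicate 2, at adjusted p of 0.0701 to 0.138, and without a filter (0.0527), with the replicate block (0.0817, edgeR) and in limma on log2(FPKM + 0.1) (0.0503). Junb averaged 29.2, 22.3 and 17.0 FPKM in the same groups and rose by a log2 fold change of 0.83 against untreated cells (adjusted p = 0.00111, edgeR's test). Against platelet cells Junb was higher by 0.43, a call that did not hold when platelet replicate 1 or 2, or any 1 of the (A/R) platelet libraries, was left out, at adjusted p of 0.0517 to 0.0956, or with the replicate block (0.0610, edgeR) or in limma on log2(FPKM + 0.1) (0.0523). Fosl2 fell by 0.30 on the log2 scale in (A/R) platelet against untreated cells (adjusted p = 0.00144, edgeR's test).

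The ETS factor Ets2 averaged 2.86, 1.83 and 1.95 FPKM in (A/R) platelet, platelet and untreated cells, with log2 fold changes of 0.60 against untreated cells and 0.68 against platelet cells (adjusted p = 0.0204 and 0.0132, edgeR's test). The adjusted p of the difference from untreated cells was 0.0641 when untreated replicate 2 was left out and 0.0699 when (A/R) platelet replicate 2 was (edgeR). Ets1 had 15.3, 15.1 and 15.3 FPKM in (A/R) platelet libraries, 18.8, 43.9 and 29.9 FPKM in platelet libraries, and 19.2, 27.8 and 26.8 FPKM in untreated libraries, a wide spread outside the (A/R) platelet group. It was lower in (A/R) platelet than in platelet cells (log2 fold change -0.98, adjusted p = 0.0182, edgeR's test). With any 1 of the (A/R) platelet libraries left out the adjusted p was 0.0521 to 0.0530 (edgeR). The log2 fold change was -0.63 without platelet replicate 2, the library at 43.9 FPKM, and -1.24 without platelet replicate 1, and the call held in both. Sp1 and Nfkb1 fell by 0.23 and 0.21 on the log2 scale against untreated cells (adjusted p = 0.00675 and 0.00379, edgeR's test). The median of the list was -0.09 for (A/R) platelet minus untreated and 0.00 for platelet minus untreated.

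The genes most like Plaur in pattern were sought by Pearson's r of log2(FPKM + 1) over the 9 libraries, among 6318 tested genes with a mean of at least 5 FPKM. The 5 nearest were Lima1, Pvr, Polr3d, Ankrd1 and Fosl1, with r of 0.997, 0.996, 0.993, 0.993 and 0.991. Pvr, an adhesion receptor of the nectin-like family, averaged 15.5, 9.20 and 6.77 FPKM in (A/R) platelet, platelet and untreated cells, and Ankrd1, an ankyrin repeat protein, 99.3, 68.8 and 52.0 FPKM. The 9 libraries form 3 groups, so such an r mostly reports that the group means stand in the same order with like spacing. For Plat the 5 nearest were Arl5a, Rbmx, Nrm, Tpst1 and Pea15a, with r of 0.974, 0.974, 0.963, 0.963 and 0.963, on levels of Plat under 1 FPKM. For Serpine2, at 0 counts in 8 libraries, no such list was made.

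**Figure D4:**
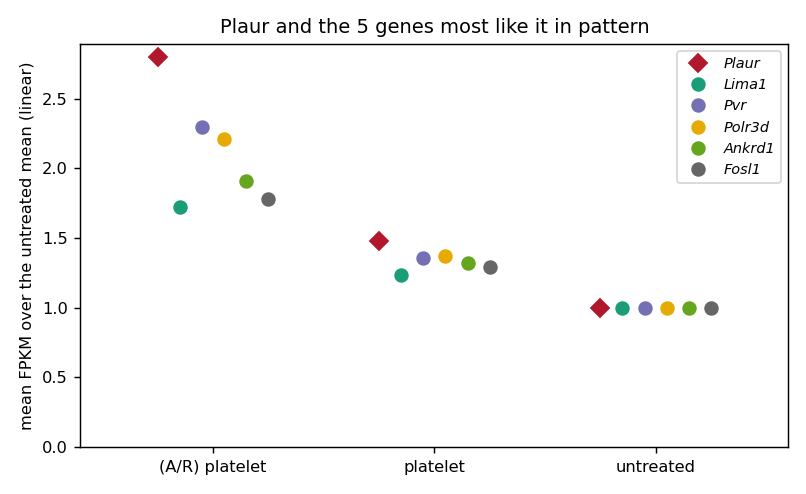
Mean FPKM of Plaur and of the 5 genes most like it in pattern, in each group of 3 libraries, divided by the mean of the gene in untreated cells, on a linear axis that starts at 0; each point is 1 gene. All 6 genes are highest in (A/R) platelet and lowest in untreated cells, and Plaur has the widest range.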

How the data were processed

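RNA sequencing libraries of K7M2 cells were analysed from 1 gene table of 9 libraries, grouped by the labels. An mRNA kit was applied to total RNA, per the labels' protocols. Reads were placed on GRCm38, also called mm10, per the submitters' processing notes. Neither an aligner nor a counter is named, and the strand setting is not given in the sources used here. FPKM came from the authors' deposited table, which writes 0.0001 for 0. The deposited expected counts were whole numbers, with 898 to 1116 genes per library at 4 counts against 286 to 342 at 3 and 173 to 213 at 5, so 1 fragment appears to add about 4 counts. Genes with at least 1 FPKM in at least 3 of 9 libraries (11826) held 99.4% to 99.5% of the counts. They were tested with edgeR 4.0.16 (R 4.3.3; TMM scaling, quasi-likelihood test, Benjamini-Hochberg over all tested genes), with 1 mean per group and no covariate, a procedure checked on simulated counts. The SE of a log2 fold change is its size over the square root of F. DESeq2 1.42.0 and limma 3.58.1, on log2(FPKM + 1) or log2(FPKM + 0.1), gave alternatives, beside other scalings, no filter, counts divided by 4, 6 libraries alone, a replicate block and each library left out. Promoter matches were counted in Python 3.11.15, in the 250 bases before each RefSeq start.

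The members and the pathway and marker lists were chosen with earlier results of these data known. In each comparison the members, the list genes that passed (at most 6 a list, by p-value) and up to 2 that did not were eligible to be named. The precision is limited by 3 libraries a group, and limits for 0 counts cover counting error only. Of the genes listed for the pathway and the markers, 2 are not reported here.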

Additional observations from a re-analysis of the deposited data

Results flagged for a closer look

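In 3 of the 40 tested genes of the pathway lists the platelet libraries lay on 1 side of every untreated library and the (A/R) platelet libraries on the other side, and (A/R) platelet cells differed from platelet cells in edgeR's quasi-likelihood test. The same was so for 296 of all 11826 tested genes, or 2.50%. Plau was below the untreated libraries in (A/R) platelet cells and above them in platelet cells, with a log2 fold change of -0.58 between (A/R) platelet and platelet cells (adjusted p = 0.000325). Vldlr was above in (A/R) platelet cells and below in platelet cells, with a log2 fold change of 0.81 (adjusted p = 1.97e-05). Tgfb1 was below in (A/R) platelet cells and above in platelet cells, with a log2 fold change of -0.42 (adjusted p = 0.00497). In platelet against untreated cells alone none of these 3 genes passed in that test, at adjusted p of 0.0915, 0.470 and 0.387, and unadjusted p of 0.000563, 0.0969 and 0.0489.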

How the results depend on the processing

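No result turned round in direction under any alternative that was run. Plaur kept its call in all 19 settings in both (A/R) platelet comparisons, at log2 fold changes of 1.46 to 1.56 against untreated cells and 0.91 to 1.03 against platelet cells. Against untreated cells, platelet cells had a Plaur log2 fold change of 0.51 to 0.63, and the call was lost with the replicate block alone (0.58, adjusted p = 0.0534). Deviations from the group means correlated at -0.03 to 0.05 for libraries of the same replicate number and -0.07 to 0.05 for different numbers. These ranges overlapped, and whether libraries of the same number shared a batch was not tested. Between platelet and untreated cells 31 genes passed (1524 at unadjusted p under 0.05). DESeq2 called 225 there (141 higher, 84 lower, including all 31), the 6 libraries alone 18, and the replicate block 0 (1337 at unadjusted p under 0.05). With 1 library left out the count was 18 to 26, lowest without platelet replicate 3, where 14 were shared. For Plau in platelet against untreated cells DESeq2 gave 0.37 (adjusted p = 0.00132). For Plau in (A/R) platelet against untreated cells the call was lost without a filter (-0.19, adjusted p = 0.142), in the 6 libraries alone (-0.21, 0.0524) and with the replicate block (-0.21, 0.0666). Leaving out each library gave -0.26 to -0.17 there. For Plat in (A/R) platelet against platelet cells, limma gave -0.36 on log2(FPKM + 1) (adjusted p = 0.0551) and -1.09 on log2(FPKM + 0.1) (0.0514). Where a call was lost, the cause was not tested. Ratios to Serpine2 and ratios from counts per length were not run, since Serpine2 had no level and the table gives no length for the counted transcripts. Among the 4 members, Plat and Serpine2 had the fewest counts.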

Other observations

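Transcripts known from liver, chosen after their values were seen, were present in some libraries of each group and near 0 in others. Albumin (Alb) had 452, 4 and 788 counts in (A/R) platelet libraries, 285, 384 and 0 counts in platelet libraries, and 239, 193 and 0 counts in untreated libraries. The fibrinogen chain Fga, whose protein is the main substrate of plasmin, had 232, 0 and 169 counts in (A/R) platelet libraries, 15, 28 and 0 counts in platelet libraries, and 29, 33 and 0 counts in untreated libraries. Vitronectin (Vtn), a ligand of the urokinase receptor, had 36, 0 and 90 counts in (A/R) platelet libraries, 8, 7 and 0 counts in platelet libraries, and 22, 14 and 0 counts in untreated libraries. Plasminogen was at 0 counts in (A/R) platelet replicate 2 and in platelet and untreated replicate 3, the same 3 libraries in which Fga and Vtn were at 0 counts, and also in untreated replicate 1. What these counts come from was not tested.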
